A study of Mus musculus with 8 samples.

Results

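Skeletal muscle fibres owe their contraction to a small set of abundant proteins, and 10 genes that encode such proteins or serve them were followed through 4 populations of stromal cells from newborn mouse bones. The genes were *Acta1*, *Ckm*, *Mylpf*, *Tnnt1*, *Tnnt3*, *Tnnc2*, *Myl1*, *Atp2a1*, *Myh3* and *Myh8*. The set is a list of names of such genes, whose choice is described with the methods, and all 10 were among the 15880 genes of the table. The mice were C57BL/6 pups, heterozygous for *Nes-Gfp*, in which regulatory elements of the rat nestin gene drive green fluorescent protein, and they were taken on postnatal day 1. Bones of 3 pups were pooled, crushed and digested with collagenase, and same-numbered libraries are read as sharing a pool. Blood (CD45), endothelial (CD31) and erythroid (Ter119) cells were gated out, and the rest were sorted by GFP and by surface Pdgfrα into GFP+ Pdgfrα-, GFP+ Pdgfrα+, GFP- Pdgfrα+ and GFP- Pdgfrα- populations. From 15000 to 80000 cells were sorted per sample, and their RNA was amplified to cDNA with the Ovation system before sequencing. Each population had 2 libraries from separate pools, 8 libraries in all. Values of 2 libraries are given in the order replicate 1, replicate 2.

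Reads on genes numbered 3644103 and 3427644 in GFP+ Pdgfrα-, 3564158 and 3329432 in GFP+ Pdgfrα+, 3869275 and 3221217 in GFP- Pdgfrα+, and 4058258 and 5302762 in GFP- Pdgfrα-. A value is the normalised signal of a gene, which is its reads plus 0.5, divided by an effective library size and multiplied by 1000000. In the 8 libraries 3 reads correspond to values from 0.825 to 1.04, which were taken as the floor. Each error given with a mean is the SD of 2 libraries. Intervals and floors cover counting error only, since reads of amplified cDNA without molecular identifiers are not independent molecules.

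In a muscle fibre, myosin heavy chains pull on actin filaments, and the troponin complex on those filaments switches the pull on when calcium is released. Fibres exchange several of these proteins as they mature. Embryonic and perinatal myosins, cardiac α-actin and the fetal acetylcholine receptor subunit mark young fibres, and they give way around and after birth to skeletal α-actin, adult fast or slow myosins and the adult receptor.

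Levels of the 10 genes were highest in the GFP+ Pdgfrα- cells. Their summed value was 286 and 264 in GFP+ Pdgfrα-, 52.2 and 66.1 in GFP+ Pdgfrα+, 52.4 and 44.8 in GFP- Pdgfrα+, and 36.8 and 29.7 in GFP- Pdgfrα-. Both GFP+ Pdgfrα- libraries therefore stood above the other 6. The genes took 1173 and 1023 reads in GFP+ Pdgfrα- and 121 to 225 in each of the others, which is 0.0322% and 0.0298% of all reads against at most 0.00676%. All 10 genes had more than 3 reads in both GFP+ Pdgfrα- libraries. In the GFP- Pdgfrα- libraries 7 and 5 of the 10 did; *Ckm*, *Tnnt1* and *Tnnc2* had at most 2 reads in each of them and were not detected there by this floor. These are bulk samples, so fewer cells of a type and less RNA per cell cannot be told apart.

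The 2 myosin heavy chains of the set are those of developing fibres, embryonic *Myh3* (ENSMUSG00000020908, chr11:66891802-66915793, plus strand, NCBIM37) and perinatal *Myh8* (ENSMUSG00000055775, chr11:67090626-67122136, plus strand). The value of *Myh3* was 38.0 and 32.8 in GFP+ Pdgfrα-, 2.90 and 4.17 in GFP+ Pdgfrα+, 2.65 and 4.01 in GFP- Pdgfrα+, and 4.74 and 2.71 in GFP- Pdgfrα-. Both GFP+ Pdgfrα- libraries lay far above the rest, and the other 3 populations overlapped. Population means of *Myh3* were 35.4 ± 3.68, 3.53 ± 0.897, 3.33 ± 0.963 and 3.73 ± 1.43 in that order. *Myh8* reached 67.4 and 49.3 in GFP+ Pdgfrα-, 10.6 and 14.8 in GFP+ Pdgfrα+, 15.5 and 10.2 in GFP- Pdgfrα+, and 4.74 and 4.83 in GFP- Pdgfrα-. For *Myh8* the GFP+ Pdgfrα- libraries were again on top, the Pdgfrα+ populations overlapped, and the GFP- Pdgfrα- libraries were lowest. Its means were 58.3 ± 12.8, 12.7 ± 2.95, 12.9 ± 3.72 and 4.79 ± 0.0672.

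Skeletal α-actin, *Acta1* (ENSMUSG00000031972, chr8:126415669-126418651, minus strand), forms the thin filament of the mature fibre. *Acta1* stood at 40.9 and 41.3 in GFP+ Pdgfrα-, 18.6 and 20.3 in GFP+ Pdgfrα+, 13.0 and 10.5 in GFP- Pdgfrα+, and 7.61 and 4.60 in GFP- Pdgfrα-. The populations did not overlap in any pair, and neighbouring means in this order differed by more than either SD. The means were 41.1 ± 0.267, 19.5 ± 1.15, 11.8 ± 1.73 and 6.10 ± 2.13.

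Myosin light chains sit on the neck of the heavy chain. The fast regulatory light chain *Mylpf* (ENSMUSG00000030672, chr7:134355122-134357812, plus strand) had values of 15.4 and 14.8 in GFP+ Pdgfrα-, 1.24 and 3.88 in GFP+ Pdgfrα+, 3.66 and 2.23 in GFP- Pdgfrα+, and 9.33 and 13.8 in GFP- Pdgfrα-. High values were thus found in both Pdgfrα- populations, with the GFP+ Pdgfrα- libraries just above the GFP- Pdgfrα- ones and low, overlapping values in the Pdgfrα+ populations. The means of *Mylpf* were 15.1 ± 0.442, 2.56 ± 1.87, 2.94 ± 1.01 and 11.6 ± 3.15. *Myl1* (ENSMUSG00000061816, chr1:66970869-66991978, minus strand), which encodes essential light chains of fast fibres, had 11.0 and 10.4 in GFP+ Pdgfrα-, 4.56 and 3.59 in GFP+ Pdgfrα+, 3.66 and 4.31 in GFP- Pdgfrα+, and 4.45 and 1.53 in GFP- Pdgfrα-. Here the GFP+ Pdgfrα- libraries were above all others, which overlapped among themselves. The means of *Myl1* were 10.7 ± 0.444, 4.08 ± 0.681, 3.98 ± 0.460 and 2.99 ± 2.06.

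Troponin T binds the complex to tropomyosin, and *Tnnt1* (ENSMUSG00000064179, chr7:4456172-4467984, minus strand) is its slow skeletal form. *Tnnt1* stood at 55.7 in each of the GFP+ Pdgfrα- libraries, 1.52 and 2.44 in GFP+ Pdgfrα+, 1.89 and 1.63 in GFP- Pdgfrα+, and 0.431 and 0.354 in GFP- Pdgfrα-. It was the most one-sided of the 10 genes, with 229 and 216 reads in GFP+ Pdgfrα- and between 1 and 8 in each of the others. The fast form *Tnnt3* (ENSMUSG00000061723, chr7:149684741-149701914, plus strand) had 5.95 and 11.7 in GFP+ Pdgfrα-, 5.39 and 7.62 in GFP+ Pdgfrα+, 5.42 and 6.68 in GFP- Pdgfrα+, and 3.02 and 0.825 in GFP- Pdgfrα-. For *Tnnt3* the first 3 populations overlapped and only the GFP- Pdgfrα- libraries lay below. Its means were 8.83 ± 4.07, 6.50 ± 1.58, 6.05 ± 0.892 and 1.92 ± 1.55, and those of *Tnnt1* were 55.7 ± 0.0185, 1.98 ± 0.654, 1.76 ± 0.182 and 0.392 ± 0.0545.

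Fast troponin C, *Tnnc2* (ENSMUSG00000017300, chr2:164602661-164605467, minus strand), takes up the calcium. Its values were 3.76 and 5.53 in GFP+ Pdgfrα-, 1.52 and 0.719 in GFP+ Pdgfrα+, 1.64 and 2.23 in GFP- Pdgfrα+, and 0.718 and 0.354 in GFP- Pdgfrα-. *Tnnc2* was highest in the GFP+ Pdgfrα- libraries at 15 and 21 reads, while the other libraries had 1 to 7. The means were 4.65 ± 1.25, 1.12 ± 0.566, 1.93 ± 0.416 and 0.536 ± 0.258. Of its 800 exon bases, 592 are shared with *Ube2c* on the opposite strand. *Ube2c* had 27.3 and 26.9 in GFP+ Pdgfrα- and 182 and 243 in GFP- Pdgfrα-, where *Tnnc2* was lowest. Whether the libraries kept the strand is not stated, so reads of the shared bases cannot be told apart.

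The fast calcium pump *Atp2a1* (ENSMUSG00000030730, chr7:133589372-133606622, minus strand) returns calcium to the sarcoplasmic reticulum. It reached 45.8 and 40.8 in GFP+ Pdgfrα-, 4.56 and 6.18 in GFP+ Pdgfrα+, 2.40 and 1.93 in GFP- Pdgfrα+, and 1.29 and 0.590 in GFP- Pdgfrα-. No pair of populations overlapped for *Atp2a1*, and the GFP+ Pdgfrα- libraries stood far apart from the rest. Its means were 43.3 ± 3.53, 5.37 ± 1.15, 2.16 ± 0.329 and 0.941 ± 0.497. Muscle creatine kinase, *Ckm* (ENSMUSG00000030399, chr7:19996443-20006932, plus strand), which buffers the energy supply of mature fibres, was near the floor throughout. *Ckm* had 2.06 and 2.19 in GFP+ Pdgfrα-, 1.24 and 2.44 in GFP+ Pdgfrα+, 2.65 and 1.04 in GFP- Pdgfrα+, and 0.431 and 0.118 in GFP- Pdgfrα-. The first 3 populations overlapped at 3 to 10 reads per library, and the GFP- Pdgfrα- libraries had 1 and 0 reads. The means of *Ckm* were 2.13 ± 0.0869, 1.84 ± 0.849, 1.84 ± 1.14 and 0.274 ± 0.221. Exons of *Atp2a1* share 763 of 3483 bases with *Rabep2* on the opposite strand, and those of *Ckm* share 451 of 1415 with A930016O22Rik, which was not analysed here.

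**Figure D1:**
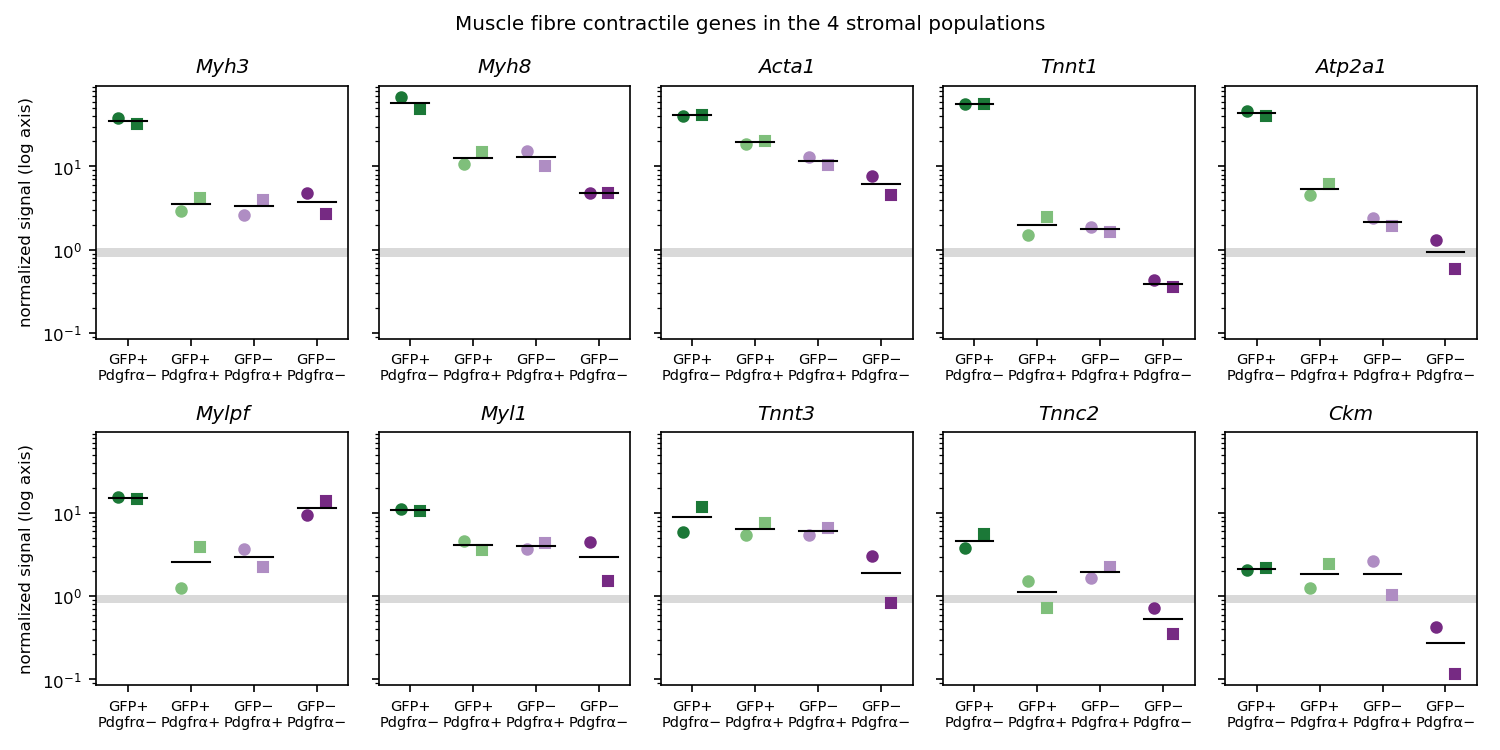
Normalised value (log axis) of the 10 contractile genes in the 8 libraries, with circles for replicate 1, squares for replicate 2 and a line at the population mean. The grey band spans the values of 3 reads in the 8 libraries, from 0.825 to 1.04, and points below it are under the floor. *Tnnt1*, *Atp2a1*, *Myh3*, *Myh8* and *Acta1* are each highest in the GFP+ Pdgfrα- libraries, at 32.8 to 67.4.

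Differences between populations were taken from a limma fit to log2(value + 1) over all 15880 genes, with p-values adjusted by the Benjamini–Hochberg method and a gene called at an adjusted p of at most 0.05. Each difference is on this log2 scale with its standard error. The comparisons share libraries, so their results are not independent of each other.

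Most of the 10 genes were higher with GFP among cells without surface Pdgfrα. Of the 10 genes, 9 were higher in GFP+ Pdgfrα- cells than in GFP- Pdgfrα- cells and 0 lower, where 30.1% of all genes were called higher. The median difference of the 10 genes was 2.24, or 1.78 with each library centred on its median, beside 0.15 over all genes. *Tnnt1* had 445 reads against 2, a ratio of 215 per effective library size with a 95% interval (Clopper–Pearson) of 59.1 to 1778, and its adjusted p in limma was 1.79e-07. *Atp2a1* rose by 4.53 ± 0.37 (limma, adjusted p = 7.45e-07), *Myh8* by 3.34 ± 0.30 (1.74e-06) and *Myh3* by 2.98 ± 0.38 (3.19e-05). The rise of *Acta1* was 2.60 ± 0.28 (limma, adjusted p = 8.30e-06). *Tnnc2* had 36 reads against 3, a ratio of 11.6 (3.66 to 58.7; limma, adjusted p = 0.00168). *Mylpf* was the exception, with a difference of 0.38 ± 0.43 and a limma adjusted p of 0.490.

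The smaller rises were nearer the threshold. *Tnnt3* was higher by 1.80 ± 0.47 and *Myl1* by 1.66 ± 0.42, with limma adjusted p of 0.00623 and 0.00557. *Ckm* had 16 reads in GFP+ Pdgfrα- against 1 in GFP- Pdgfrα- cells, a ratio of 15.4 with an interval of 2.40 to 647 and a limma adjusted p of 0.0199. The calls of *Tnnt3*, *Myl1* and *Ckm* were each lost without GFP- Pdgfrα- replicate 2. Those of *Tnnt3* and *Ckm* were also lost without GFP+ Pdgfrα- replicate 2, and that of *Ckm* without GFP+ Pdgfrα- replicate 1. When any 1 library was left out the difference lay between 1.23 and 2.36 for *Tnnt3*, 1.11 and 2.21 for *Myl1* and 1.13 and 1.48 for *Ckm*. Centring each library on its median moved the median difference of all genes from 0.15 to -0.30, and *Ckm* was then not called (limma adjusted p = 0.109) while the other 8 were. It also turned the calls over all genes from 4787 higher and 3740 lower to 3550 higher and 5569 lower. Over all alternatives the adjusted p lay between 0.00883 and 0.118 for *Ckm*, 0.00276 and 0.0820 for *Tnnt3*, and 0.00221 and 0.0678 for *Myl1*.

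Among GFP+ cells the genes followed the absence of Pdgfrα. Of the 10, 7 were higher in GFP+ Pdgfrα- cells than in GFP+ Pdgfrα+ cells and 0 lower, where 11.1% of all genes were called higher. The median difference was 1.77, or 1.79 with centred libraries, beside 0.02 over all genes. *Tnnt1* rose by 4.27 ± 0.37 (limma, adjusted p = 7.38e-06), *Myh3* by 3.02 ± 0.38 (0.00013) and *Atp2a1* by 2.81 ± 0.37 (0.000194). *Mylpf*, which did not pass the test against GFP- Pdgfrα- cells, was higher than in GFP+ Pdgfrα+ cells by 2.28 ± 0.43 (limma, adjusted p = 0.00241), and *Myh8* by 2.11 ± 0.30 (0.000344). *Ckm* and *Tnnt3*, whose libraries overlapped between these populations, differed by 0.17 ± 0.42 and 0.34 ± 0.47, with limma adjusted p of 0.814 and 0.652.

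Calls of *Acta1*, *Tnnc2* and *Myl1* in that comparison were close to the threshold. The difference was 1.04 ± 0.28 for *Acta1*, 1.42 ± 0.40 for *Tnnc2* and 1.22 ± 0.42 for *Myl1*, with limma adjusted p of 0.0184, 0.0218 and 0.0573. For *Acta1* the adjusted p was 0.105 without GFP+ Pdgfrα- replicate 1, 0.103 without GFP+ Pdgfrα- replicate 2, 0.0806 without GFP+ Pdgfrα+ replicate 1 and 0.0600 without GFP+ Pdgfrα+ replicate 2, in a range of 0.00332 to 0.105 over all alternatives. For *Tnnc2* it was 0.0507, 0.128 and 0.116 without GFP+ Pdgfrα- replicate 1, GFP+ Pdgfrα- replicate 2 and GFP+ Pdgfrα+ replicate 2, 0.0887 in edgeR, 0.0612 with a pseudocount of 0.1 and 0.0511 with only the compared populations, in a range of 0.0198 to 0.128. *Myl1* passed the threshold without GFP- Pdgfrα- replicate 1 (0.0371), without GFP- Pdgfrα- replicate 2 (0.0330), with voom (0.0434) and with only the compared populations (0.0492), in a range of 0.0330 to 0.211. With 1 library left out, the difference itself was still at least 0.99 for *Acta1*, 1.15 for *Tnnc2* and 1.08 for *Myl1*, and between 5 and 8 of the 10 genes were called. Calls over all genes fell from 3848 to 2158 without GFP+ Pdgfrα- replicate 1 and to 2411 without GFP+ Pdgfrα- replicate 2.

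Of the 10 genes, 0 were called between GFP+ Pdgfrα+ and GFP- Pdgfrα+ cells by limma. Of all genes 5.35% were called in either direction, a share too small for 0 of 10 to stand out. At an unadjusted p of at most 0.05, 2 of the 10 passed, *Atp2a1* (difference 1.00 ± 0.37, adjusted p = 0.162) and *Acta1* (0.69 ± 0.28, adjusted p = 0.212), and edgeR and voom also called 0 with 2 genes each at the unadjusted level. The median difference of the 10 was 0.05, beside 0.00 over all genes. Both GFP+ Pdgfrα+ libraries lay above both GFP- Pdgfrα+ libraries for *Acta1* and *Atp2a1*, and below both for *Tnnc2* (-0.49 ± 0.40, limma adjusted p = 0.576). The calls over all genes were 511 higher and 338 lower in GFP+ Pdgfrα+ cells, and 532 and 553 with voom. Their count, 849, was 306 without GFP- Pdgfrα+ replicate 1, 246 without GFP- Pdgfrα+ replicate 2, 350 without GFP+ Pdgfrα+ replicate 1 and 517 without GFP+ Pdgfrα+ replicate 2, while 0 of the 10 genes were called in each case.

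Among GFP- cells, 5 of the 10 genes were lower in GFP- Pdgfrα- cells than in GFP- Pdgfrα+ cells, where 32.9% of all genes were called lower, and 1 was higher, where 26.8% were. The median difference of the 10 was -0.90, or -0.45 with centred libraries, beside -0.17 over all genes. *Mylpf* rose by 1.67 ± 0.43 (limma, adjusted p = 0.00534), and *Myh8* fell by 1.24 ± 0.30 (0.00366). *Tnnt3* fell by 1.38 ± 0.47 and *Acta1* fell by 0.87 ± 0.28, with limma adjusted p of 0.0233 and 0.0180. *Ckm*, with 1 read against 13, had a ratio of 0.0730 (0.00172 to 0.486) and *Tnnt1*, with 2 reads against 12, a ratio of 0.158 (0.0172 to 0.711), at limma adjusted p of 0.0379 and 0.0368. *Atp2a1*, *Tnnc2*, *Myl1* and *Myh3* were not called, at limma adjusted p of 0.113, 0.0602, 0.418 and 0.821.

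Most of these calls did not survive other choices. With centred libraries the difference shrank to -0.42 for *Acta1*, -0.66 for *Ckm*, -0.54 for *Tnnt1* and -0.92 for *Tnnt3*. It stayed at -0.87 for *Acta1* with only the compared populations, and voom gave -2.18 for *Tnnt1*. When any 1 library was left out it lay between -1.94 and -0.81 for *Tnnt3* and between -1.53 and -0.69 for *Ckm*. With each library centred on its median, the median of all genes moved to 0.28, all calls went from 4250 higher and 5226 lower to 5720 higher and 3913 lower, and 2 of the 10 genes were called, *Mylpf* and *Myh8*; the adjusted p of *Acta1*, *Ckm*, *Tnnt1* and *Tnnt3* was then 0.232, 0.205, 0.246 and 0.110. Without GFP- Pdgfrα- replicate 2 it was 0.131, 0.180, 0.114 and 0.205 for these 4 genes, and without GFP- Pdgfrα+ replicate 1 it was 0.108, 0.247, 0.120 and 0.0613. Without GFP- Pdgfrα+ replicate 2 *Tnnt1* (0.0807), *Tnnt3* (0.114) and *Mylpf* (0.0502) were not called, and without GFP- Pdgfrα- replicate 1 *Ckm* (0.0691) and *Tnnt1* (0.0887) were not. *Ckm* also missed the threshold without either GFP+ Pdgfrα- library, at 0.0513 and 0.0512, and *Tnnt1* missed it with voom, at 0.0514. *Tnnc2* met it without either GFP+ Pdgfrα+ library, at 0.0473 and 0.0489. With only the compared populations *Acta1* was not called (0.0748) and *Tnnc2* was (0.0380). In limma and the other tools the adjusted p ranged from 0.00603 to 0.232 for *Acta1*, 0.0210 to 0.247 for *Ckm*, 0.00967 to 0.246 for *Tnnt1*, 0.00782 to 0.205 for *Tnnt3*, 0.000823 to 0.0502 for *Mylpf* and 0.0380 to 0.324 for *Tnnc2*.

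Whether the effect of GFP itself differed with Pdgfrα was tested as an interaction. The GFP difference was larger among Pdgfrα- than among Pdgfrα+ cells for 7 of the 10 genes, where 25.2% of all genes were called in that direction. The excess was 5.25 ± 0.52 for *Tnnt1* (limma, adjusted p = 7.99e-06), 3.53 ± 0.53 for *Atp2a1* (0.000187) and 3.35 ± 0.43 for *Myh8* (5.68e-05). It was 2.90 ± 0.53 for *Myh3*, 2.36 ± 0.56 for *Tnnc2* and 1.91 ± 0.40 for *Acta1*, with limma adjusted p of 0.000877, 0.00486 and 0.00203. *Myl1*, at 1.63 ± 0.60 and 0.0435, was called only narrowly. *Tnnt3*, *Ckm* and *Mylpf* were not called, with an excess of 1.72 ± 0.66, 1.28 ± 0.59 and 0.61 ± 0.61 and limma adjusted p of 0.0531, 0.102 and 0.453. The median of the 10 genes was 2.14, beside 0.16 over all genes, and these became 1.71 and -0.27 with each library centred on its median. Centring also turned the calls over all genes from 3999 in that direction and 3032 in the other to 2989 and 4427.

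The interaction of *Myl1* was lost without any 1 of 7 libraries. Its limma adjusted p was 0.171 without GFP- Pdgfrα- replicate 2, 0.0780 and 0.114 without GFP- Pdgfrα+ replicate 1 or 2, 0.110 and 0.0972 without GFP+ Pdgfrα- replicate 1 or 2, and 0.0600 and 0.1002 without GFP+ Pdgfrα+ replicate 1 or 2. It was 0.126 with centred libraries, 0.0832 in edgeR and 0.0680 with a pseudocount of 0.1, and all alternatives lay between 0.0132 and 0.171. *Tnnt3* passed without GFP- Pdgfrα- replicate 1 (0.0177), without GFP+ Pdgfrα- replicate 1 (0.0441), with voom (0.0426) and with the filter on low values (0.0475), in a range of 0.0177 to 0.206.

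**Figure D2:**
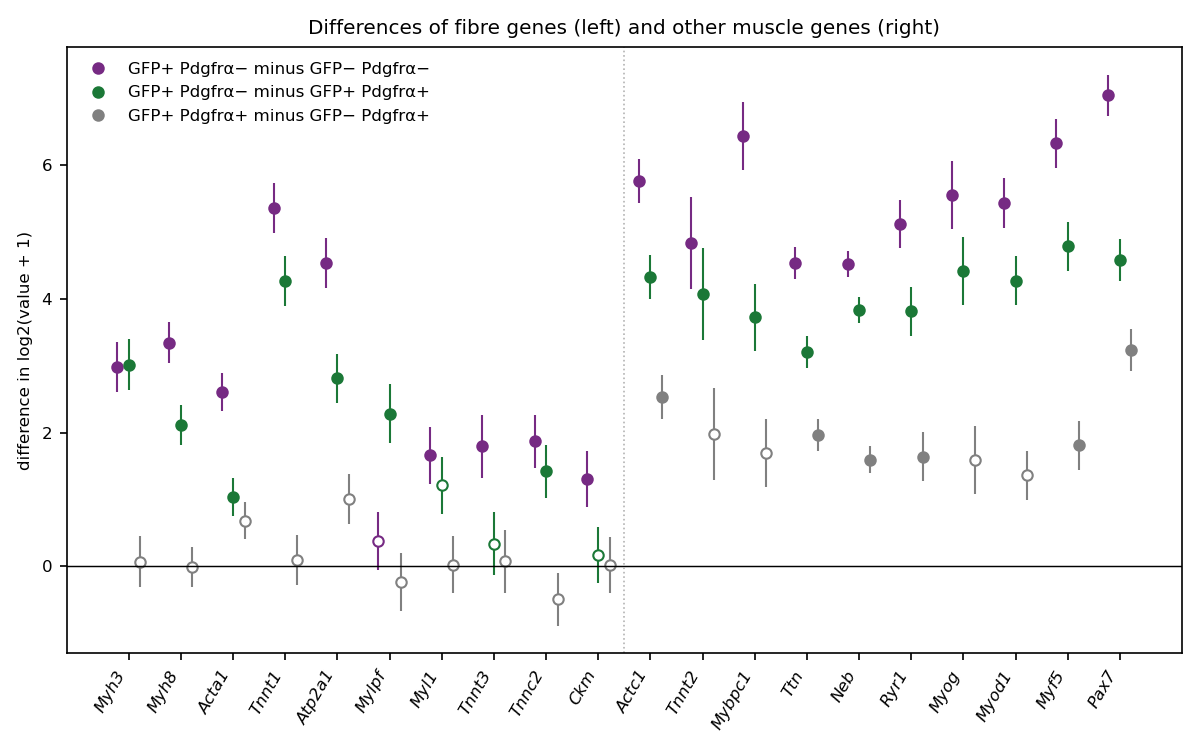
Difference in log2(value + 1) with its standard error for the 10 contractile genes (left) and other muscle genes (right) in 3 comparisons, with filled points where the limma adjusted p is at most 0.05. Differences of *Tnnt1*, *Atp2a1*, *Myh3* and *Myh8* between GFP+ Pdgfrα- and GFP+ Pdgfrα+ cells lie between 2.11 and 4.27.

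To set fetal against mature fibre genes, 6 developmental genes were compared with 9 adult fast genes, of which 4 and 5 were not among the 10. Of the developmental genes, 6 of 6 were higher in GFP+ Pdgfrα- cells than in GFP- Pdgfrα- cells and 5 of 6 higher than in GFP+ Pdgfrα+ cells, with median differences of 3.16 and 2.94, where 30.1% and 11.1% of all genes were called higher. Of the adult fast genes in the table, 6 of 9 were higher in each of these comparisons, with medians of 1.63 and 1.42. Another 4 adult fast genes, *Myh4*, *Pvalb*, *Mybpc2* and *Chrne*, were not found by name in the table. The adult fast counts, medians and sums therefore rest on the 9 that were. The summed value of the developmental genes was 1282 and 1041 in GFP+ Pdgfrα-, 84.0 and 60.4 in GFP+ Pdgfrα+, 28.0 and 24.7 in GFP- Pdgfrα+, and 45.1 and 19.6 in GFP- Pdgfrα-. That of the adult fast genes was 91.7 and 98.7 in GFP+ Pdgfrα-, 17.3 and 24.6 in GFP+ Pdgfrα+, 19.5 and 18.3 in GFP- Pdgfrα+, and 17.7 and 20.4 in GFP- Pdgfrα-. A large part of the adult fast sum in GFP+ Pdgfrα- was the single gene *Atp2a1*, at 45.8 and 40.8. Both sums were highest in GFP+ Pdgfrα-, while the other 6 libraries overlapped across populations for the adult fast sum. Between Pdgfrα+ populations 1 developmental gene was higher in GFP+ Pdgfrα+ cells and 0 adult fast genes were called by limma, with 1 at an unadjusted p of at most 0.05, where 5.35% of all genes were called in either direction. Between GFP- populations 1 of 6 developmental genes was higher and 1 lower in GFP- Pdgfrα- cells, beside 1 and 2 of 9 adult fast genes and 26.8% and 32.9% of all genes. The interaction was called for 5 of 6 and 5 of 9, beside 25.2% of all genes in that direction.

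Cardiac α-actin *Actc1*, an actin of embryonic skeletal muscle and of the heart, dominated the developmental sum. *Actc1* stood at 1046 and 856 in GFP+ Pdgfrα-, 57.0 and 37.8 in GFP+ Pdgfrα+, 6.68 and 7.87 in GFP- Pdgfrα+, and 25.7 and 10.5 in GFP- Pdgfrα-. The populations did not overlap. *Actc1* rose by 5.76 ± 0.33 over GFP- Pdgfrα- cells and by 4.32 ± 0.33 over GFP+ Pdgfrα+ cells (limma, adjusted p = 3.59e-08 and 2.90e-06), and it was the developmental gene called between GFP+ Pdgfrα+ and GFP- Pdgfrα+ cells, at 2.52 ± 0.33 (0.000951). These 3 calls of *Actc1* were kept under every alternative run. The cardiac heavy chain *Myh6* had 140 and 13 reads in GFP+ Pdgfrα-, and the part of cardiac cells in the values of *Actc1* and *Tnnt2* was not tested.

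*Tnnt2*, the troponin T of embryonic and cardiac muscle, was likewise highest in GFP+ Pdgfrα-, while its GFP- Pdgfrα- values overlapped with those of GFP+ Pdgfrα+ and GFP- Pdgfrα+. *Tnnt2* had 118 and 86.3 in GFP+ Pdgfrα-, 9.80 and 2.44 in GFP+ Pdgfrα+, 0.378 and 0.743 in GFP- Pdgfrα+, and 7.04 and 0.590 in GFP- Pdgfrα-. Both GFP+ Pdgfrα- libraries were above the rest by 4.83 ± 0.68 against GFP- Pdgfrα- and 4.06 ± 0.68 against GFP+ Pdgfrα+ cells (limma, adjusted p = 7.80e-05 and 0.00109). The fetal receptor subunit *Chrng* had 4.73 and 14.0 in GFP+ Pdgfrα-, which were 19 and 54 reads, and 0.144 to 0.590 in the other 6. Its 73 reads in GFP+ Pdgfrα- cells compare with 2 in GFP- Pdgfrα-, a ratio of 35.2 (9.40 to 296), and with 1 in GFP+ Pdgfrα+, a ratio of 64.7 (11.3 to 2591), at limma adjusted p of 0.000305 and 0.00088. The embryonic light chain *Myl4* had 8.62 and 3.47 in GFP+ Pdgfrα-, 3.18 and 1.01 in GFP+ Pdgfrα+, 2.40 and 1.63 in GFP- Pdgfrα+, and 2.73 and 0.354 in GFP- Pdgfrα-.

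The GFP+ Pdgfrα- libraries of *Myl4* were the highest of the 8, though only narrowly in replicate 2. *Myl4* was called against GFP- Pdgfrα- cells at 1.55 ± 0.57 (limma, adjusted p = 0.0384) and not against GFP+ Pdgfrα+ cells at 1.18 ± 0.57 (0.165). When any 1 library was left out these differences lay between 0.81 and 2.28 and between 0.63 and 1.73. The call was lost without GFP- Pdgfrα- replicate 2 (0.323), GFP+ Pdgfrα- replicate 1 (0.280), GFP- Pdgfrα+ replicate 1 (0.0570) or GFP- Pdgfrα+ replicate 2 (0.0571), and with edgeR (0.0729), centred libraries (0.123), only the compared populations (0.0760) or a pseudocount of 0.1 (0.0582), in a range of 0.00790 to 0.323.

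Adult fast myosins were scarce in every population. *Myh1*, the fast 2X heavy chain, had 2.79 and 6.30 in GFP+ Pdgfrα-, 0.138 and 0.144 in GFP+ Pdgfrα+, 0.126 and 0.446 in GFP- Pdgfrα+, and 0.144 and 1.53 in GFP- Pdgfrα-. This was 11 and 24 reads in GFP+ Pdgfrα- against 0 to 6 in each of the others. *Myh1* was at least 4.61-fold higher in GFP+ Pdgfrα- cells than in GFP+ Pdgfrα+ cells, which had 0 reads (floor of 3 reads per library; limma, adjusted p = 0.00463), and higher than in GFP- Pdgfrα- cells by 1.63 ± 0.47 (0.0107). Against GFP- Pdgfrα- cells the adjusted p was 0.132 without GFP- Pdgfrα- replicate 1, 0.104 without GFP+ Pdgfrα- replicate 2 and 0.1001 in edgeR (range 0.00495 to 0.132), and against GFP+ Pdgfrα+ cells it was 0.0557 without GFP+ Pdgfrα- replicate 2 (range 0.00205 to 0.0557). *Myh2*, the fast 2A heavy chain, had 0 and 8 reads in GFP+ Pdgfrα-, at values of 0.121 and 2.19, and was not called in either comparison.

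*Casq1*, the fast calsequestrin, had 4.49 and 5.53 in GFP+ Pdgfrα- and 0 reads in both GFP+ Pdgfrα+ libraries, which makes it at least 5.08-fold higher (limma, adjusted p = 0.000544); over GFP- Pdgfrα- cells it rose by 1.59 ± 0.36 (0.00276). *Actn3*, the α-actinin of fast fibres, had 10.1 and 9.39 in GFP+ Pdgfrα-, 3.45 and 3.88 in GFP+ Pdgfrα+, 2.90 and 2.52 in GFP- Pdgfrα+, and 1.29 and 0.354 in GFP- Pdgfrα-. Its values did not overlap between populations. *Actn3* rose by 2.61 ± 0.40 over GFP- Pdgfrα- cells (limma, adjusted p = 0.000142) and by 1.20 ± 0.40 over GFP+ Pdgfrα+ cells (0.0460). Its rise over GFP+ Pdgfrα+ cells lay between 1.14 and 1.42 over all alternatives.

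The call of *Actn3* over GFP+ Pdgfrα+ cells rested on a narrow margin, since its limma adjusted p was 0.173 without GFP+ Pdgfrα- replicate 1, 0.134 without GFP+ Pdgfrα- replicate 2, 0.130 without GFP+ Pdgfrα+ replicate 1, 0.102 without GFP+ Pdgfrα+ replicate 2, and 0.0637 without either GFP- Pdgfrα+ library. It was 0.0917 in edgeR, 0.0533 with only the compared populations, 0.154 with a pseudocount of 0.1 and 0.0507 with the replicate number as a block, in a range of 0.0399 to 0.173. Fast troponin I, *Tnni2*, had 3.28 and 2.44 in GFP+ Pdgfrα- and 0.690 to 1.63 in the other 6. The 2 GFP+ Pdgfrα- libraries of *Tnni2* were the highest, but its differences of 0.92 ± 0.37 over GFP- Pdgfrα- and 0.96 ± 0.37 over GFP+ Pdgfrα+ cells were not called (limma, adjusted p = 0.0563 and 0.0846). Against GFP- Pdgfrα- cells *Tnni2* passed at 0.0442 and 0.0436 without GFP+ Pdgfrα+ replicate 1 or 2 and at 0.0499 with only the compared populations, in a range of 0.0436 to 0.334.

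Within a library, levels per kilobase of exon allow genes to be set side by side. In the GFP+ Pdgfrα- libraries the mean value per kb was 587 ± 83.1 for *Actc1* and 28.4 ± 0.185 for *Acta1*. The value of *Actc1* per kb was thus 22.8 and 18.5 times that of *Acta1* in the 2 GFP+ Pdgfrα- libraries, 2.73 and 1.67 times in GFP+ Pdgfrα+, 0.460 and 0.667 times in GFP- Pdgfrα+, and 3.02 and 2.04 times in GFP- Pdgfrα-. The developmental actin was the higher one in 6 of the 8 libraries, and the adult one in the GFP- Pdgfrα+ libraries. Coding sequences of *Acta1* and *Actc1* are identical at 86.2% of 1134 bases. Those of *Acta1* and smooth muscle actin *Acta2*, which had 584 and 623 in GFP+ Pdgfrα-, are identical at 85.4%. How reads of alike stretches were divided between these genes was not tested.

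*Myh3* and *Myh8* had 5.76 ± 0.598 and 4.95 ± 1.09 per kb in GFP+ Pdgfrα-, *Myh1* 0.716 ± 0.391 and *Myh2* 0.162 ± 0.205. Summed per kb, *Myh3* and *Myh8* exceeded *Myh1* and *Myh2* 26.1-fold in replicate 1 and 7.33-fold in replicate 2 of the GFP+ Pdgfrα- cells, on 433 against 11 and 318 against 32 reads. The log2 ratio was 3.79 ± 1.29 (SD, n = 2). It could be given for 2 other libraries, 8.16-fold in GFP- Pdgfrα+ replicate 1 on 71 against 5 reads and 2.63-fold in GFP- Pdgfrα- replicate 2 on 31 against 8. The remaining 4 libraries had at most 2 reads of the adult pair. Developmental heavy chains were therefore the higher pair in each library where the ratio could be taken, and no test between populations was made, since the ratio could be given in 2, 0, 1 and 1 libraries of GFP+ Pdgfrα-, GFP+ Pdgfrα+, GFP- Pdgfrα+ and GFP- Pdgfrα-. Leaving out replicate 1 or 2 gave a log2 ratio of 2.87 or 4.70. The third adult fast heavy chain, *Myh4*, was not found by name in the table and is not part of this ratio.

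Light chains, troponin T and the 2 developmental heavy chains were set side by side in the same way. Embryonic *Myl4* per kb was 0.298 and 0.127 times *Myl1* in GFP+ Pdgfrα-, and 0.145 to 0.266 times in the 4 other libraries with more than 3 reads of each. Embryonic *Tnnt2*, at 92.4 ± 20.3 per kb, stood above slow *Tnnt1* at 25.5 ± 0.00847 and fast *Tnnt3* at 6.56 ± 3.03 in GFP+ Pdgfrα- cells, though *Tnnt2* is also a gene of the heart. *Tnnt1* was 5.77 and 2.93 times *Tnnt3* in GFP+ Pdgfrα-, and 0.150 to 0.215 times in the Pdgfrα+ libraries; the GFP- Pdgfrα- libraries had 1 read of *Tnnt1* each. *Myh3* was 1.08 and 1.27 times *Myh8* per kb in GFP+ Pdgfrα-, 0.327 to 0.749 times in the Pdgfrα+ libraries, and 1.91 and 1.07 times in GFP- Pdgfrα-.

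These lengths are those of merged exons, and the longest coding transcript was tried instead after the data were seen. On that scale *Myh3* was 0.575 and 0.679 times *Myh8* in GFP+ Pdgfrα-, so which of the 2 was higher turned with the length. *Myl4* was then 0.895 and 0.382 times *Myl1* in GFP+ Pdgfrα-, still below it. *Tnnt1* was 9.54 and 4.85 times *Tnnt3*, and *Tnnt2*, at 108 and 78.7 per kb, was above *Tnnt1* at 52.6 in each library. *Actc1* was 25.1 and 20.3 times *Acta1*.

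**Figure D3:**
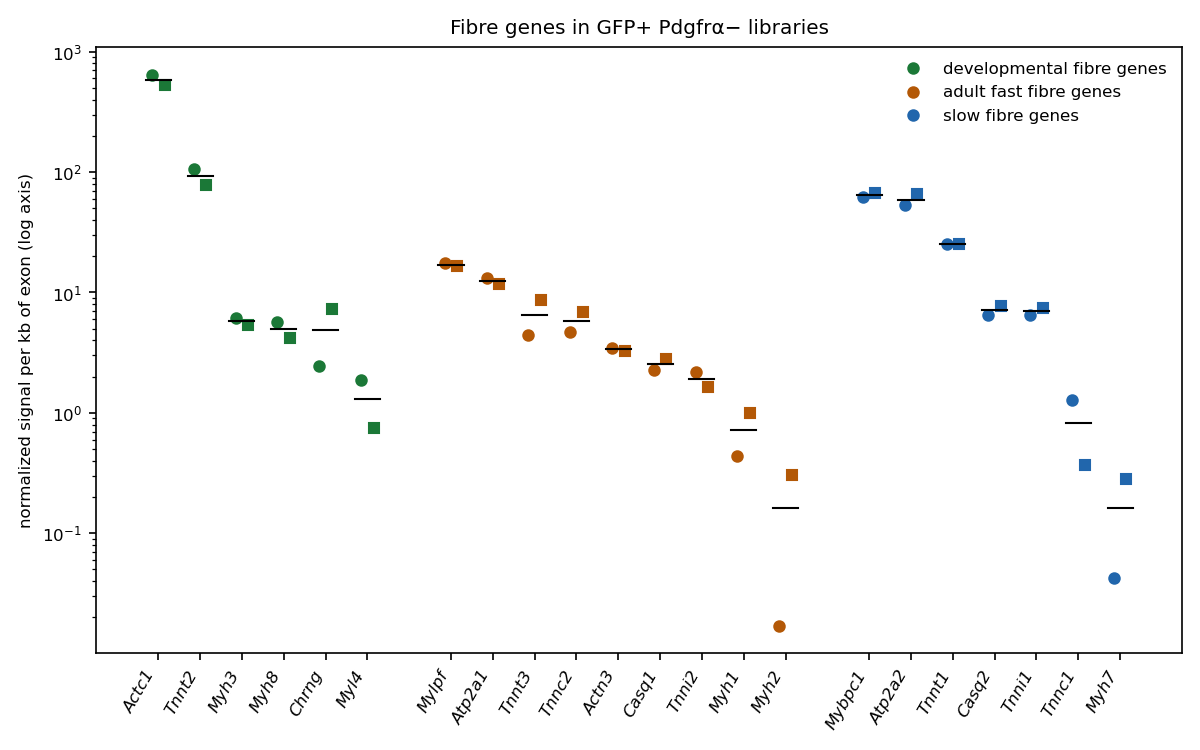
Normalised value per kb of exon (log axis) in the 2 GFP+ Pdgfrα- libraries for developmental, adult fast and slow fibre genes, with circles for replicate 1 and squares for replicate 2. *Actc1*, at a mean of 587, is the highest and the adult myosins *Myh1* and *Myh2* are among the lowest, at 0.716 and 0.162; *Myh2* had 0 reads in replicate 1.

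Slow fibre genes were divided. Of 9 listed, *Myl2* and *Myl3* were not found by name in the table. Of the other 7, 4 were higher in GFP+ Pdgfrα- cells than in GFP- Pdgfrα- cells and the same number higher than in GFP+ Pdgfrα+ cells, with median differences of 2.85 and 2.17, where 30.1% and 11.1% of all genes were called higher. In GFP- Pdgfrα- cells 1 was lower than in GFP- Pdgfrα+ cells, beside 32.9% of all genes. The summed value was 667 and 765 in GFP+ Pdgfrα-, 310.0 and 296 in GFP+ Pdgfrα+, 306 and 291 in GFP- Pdgfrα+, and 364 and 359 in GFP- Pdgfrα-. Much of it was *Atp2a2*, the slow and housekeeping calcium pump. Its values were 299.7 and 371 in GFP+ Pdgfrα-, 279 and 267 in GFP+ Pdgfrα+, 295 and 282 in GFP- Pdgfrα+, and 354 and 355 in GFP- Pdgfrα-. Only the Pdgfrα- populations overlapped with each other. *Mybpc1*, slow myosin-binding protein C, had 281 and 301 in GFP+ Pdgfrα-, 23.1 and 19.4 in GFP+ Pdgfrα+, 6.18 and 5.49 in GFP- Pdgfrα+, and 6.18 and 0.590 in GFP- Pdgfrα-. Its rises of 6.43 ± 0.51 over GFP- Pdgfrα- and 3.72 ± 0.51 over GFP+ Pdgfrα+ cells had limma adjusted p of 5.19e-07 and 0.000235. *Casq2*, the slow and cardiac calsequestrin, had 17.8 and 21.2 in GFP+ Pdgfrα- and 0.446 to 4.56 in the others, and rose by 3.02 ± 0.40 and 2.17 ± 0.40 (limma, adjusted p = 4.93e-05 and 0.00213). The slow heavy chain *Myh7* had 1 and 9 reads in the GFP+ Pdgfrα- libraries.

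Among the remaining sarcomere and Z-disc genes, 13 of the 19 in the table were higher in GFP+ Pdgfrα- cells than in GFP- Pdgfrα- cells and 0 lower, beside 30.1% and 23.6% of all genes, and 8 were higher and 2 lower than in GFP+ Pdgfrα+ cells, where 11.1% and 13.1% of all genes were. Their median differences were 1.89 and 1.06. Between Pdgfrα+ populations 4 were higher in GFP+ Pdgfrα+ cells, beside 511 of all 15880 genes. Between GFP- populations 8 were lower and 2 higher in GFP- Pdgfrα- cells, where 32.9% and 26.8% of all genes were. Titin, *Ttn*, the spring of the sarcomere, had 914 and 818 in GFP+ Pdgfrα-, 109.8 and 79.2 in GFP+ Pdgfrα+, 17.8 and 30.1 in GFP- Pdgfrα+, and 41.8 and 31.7 in GFP- Pdgfrα-. The GFP+ populations were above the others, and *Ttn* rose by 4.53 ± 0.24 over GFP- Pdgfrα-, by 3.20 ± 0.24 over GFP+ Pdgfrα+, and in GFP+ Pdgfrα+ over GFP- Pdgfrα+ cells by 1.96 ± 0.24 (limma, adjusted p = 1.97e-08, 2.60e-06 and 0.000598). Nebulin, *Neb*, which spans the thin filament, had 518 and 470.4 in GFP+ Pdgfrα-, 31.1 and 36.9 in GFP+ Pdgfrα+, 9.20 and 12.0 in GFP- Pdgfrα+, and 18.5 and 23.0 in GFP- Pdgfrα-. It was highest in the GFP+ Pdgfrα- libraries and did not overlap between populations, with rises of 4.51 ± 0.20, 3.83 ± 0.20 and 1.60 ± 0.20 in the same 3 comparisons (limma, adjusted p = 4.22e-09, 2.04e-07 and 0.000644). Summed values of this list were 2469 and 2457 in GFP+ Pdgfrα-, 1232 and 945 in GFP+ Pdgfrα+, 635 and 624 in GFP- Pdgfrα+, and 346 and 396 in GFP- Pdgfrα-, with *Ttn* the most abundant gene in the GFP+ Pdgfrα- libraries and *Tpm1* in the other 6.

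Excitation–contraction coupling genes link the nerve signal to calcium release. Of 15 in the table, 13 were higher in GFP+ Pdgfrα- cells than in GFP- Pdgfrα- cells and 12 higher than in GFP+ Pdgfrα+ cells, with 0 lower and medians of 2.41 and 2.19, where 30.1% and 11.1% of all genes were called higher; with the gene at 0 reads set to its bound, the first median was 2.45. Their sum was 441 and 490.5 in GFP+ Pdgfrα-, 53.7 and 41.3 in GFP+ Pdgfrα+, 39.5 and 44.4 in GFP- Pdgfrα+, and 20.2 and 19.5 in GFP- Pdgfrα-, and the most abundant gene was *Chrnb1* in the GFP+ Pdgfrα- libraries and *Srl* or *Cacnb1* in the other 6. The calcium release channel *Ryr1* had 100.4 and 93.0 in GFP+ Pdgfrα- and 1.13 to 8.19 in the other 6. The receptor subunits *Chrnb1* and *Chrna1* had 139 and 192, and 66.4 and 54.2, in GFP+ Pdgfrα-, and at most 9.25 and 5.11 in any other. *Ryr1* rose by 5.11 ± 0.36 over GFP- Pdgfrα- and by 3.81 ± 0.36 over GFP+ Pdgfrα+ cells (limma, adjusted p = 2.18e-07 and 1.56e-05), *Chrnb1* by 5.86 ± 0.41 and 4.104 ± 0.411 (1.95e-07 and 2.31e-05) and *Chrna1* by 4.19 ± 0.54 and 3.86 ± 0.54 (3.43e-05 and 0.000275).

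Fibre energy genes that could be measured were called in both directions. Of 13 listed, *Ckmt2*, *Mb*, *Ampd1*, *Cox6a2*, *Cox7a1*, *Cox8b* and *Phkg1* were not found by name in the table. The counts, medians and sum rest on the other 6. Of the 6 in the table, 2 were higher and 2 lower in GFP+ Pdgfrα- cells than in GFP- Pdgfrα- cells, where 30.1% and 23.6% of all genes were, and 1 was higher and 2 lower than in GFP+ Pdgfrα+ cells, where 11.1% and 13.1% were. With centred libraries more of all genes were lower than higher in the first comparison, 5569 against 3550. Their medians were 0.61 and -0.37. Their sum was 199 and 173 in GFP+ Pdgfrα-, 308 and 224 in GFP+ Pdgfrα+, 221 and 204 in GFP- Pdgfrα+, and 564 and 495 in GFP- Pdgfrα-, with *Ldha*, lactate dehydrogenase A, the most abundant. Muscle glycogen phosphorylase, *Pygm*, had 21.7 and 27.7 in GFP+ Pdgfrα- and 0.630 to 6.49 in the other 6. It rose by 2.88 ± 0.47 over GFP- Pdgfrα- and by 2.00 ± 0.47 over GFP+ Pdgfrα+ cells (limma, adjusted p = 0.000235 and 0.00876), the second lost without GFP+ Pdgfrα- replicate 1 (0.0513), GFP+ Pdgfrα- replicate 2 (0.0847) or GFP+ Pdgfrα+ replicate 2 (0.0655), in a range of 0.00195 to 0.0847. *Ldha* fell by 1.78 ± 0.18 and *Pfkm*, muscle phosphofructokinase, fell by 2.14 ± 0.22 in GFP+ Pdgfrα- against GFP- Pdgfrα- cells (limma, adjusted p = 4.89e-06 and 4.52e-06).

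Regulators of muscle precursors were also higher in GFP+ Pdgfrα- cells. Of 14 in the table, 14 were higher in GFP+ Pdgfrα- cells than in GFP- Pdgfrα- cells, and 11 were higher and 1 lower than in GFP+ Pdgfrα+ cells, where 11.1% and 13.1% of all genes were, with medians of 5.47 and 3.57; of all genes 30.1% were higher in the first comparison. Their sum was 2005 and 1957 in GFP+ Pdgfrα-, 544 and 459 in GFP+ Pdgfrα+, 407 and 370.4 in GFP- Pdgfrα+, and 37.3 and 32.1 in GFP- Pdgfrα-. The most abundant gene was *Megf10* in GFP+ Pdgfrα-, *Chodl* in GFP- Pdgfrα+ and *Mef2c* in the other populations. Regulators went both ways between the Pdgfrα+ populations. There 5 of the 14 were higher and 2 lower in GFP+ Pdgfrα+ cells, beside 511 and 338 of all 15880 genes. *Pax7*, which marks satellite cells, had 296 and 336 in GFP+ Pdgfrα-, 10.4 and 14.5 in GFP+ Pdgfrα+, 0.378 and 0.446 in GFP- Pdgfrα+, and 1.29 and 1.53 in GFP- Pdgfrα-. The GFP+ populations stood above the GFP- ones, by 7.04 ± 0.31 in GFP+ Pdgfrα- over GFP- Pdgfrα- cells (limma, adjusted p = 4.21e-09) and with 87 reads against 2 in GFP+ Pdgfrα+ over GFP- Pdgfrα+ cells, a ratio of 44.9 (12.1 to 377; 0.000126). Myogenin, *Myog*, which is switched on as precursors differentiate, had 141 and 95.3 in GFP+ Pdgfrα-, 4.56 and 4.46 in GFP+ Pdgfrα+, 0.630 and 1.04 in GFP- Pdgfrα+, and 3.59 and 0.354 in GFP- Pdgfrα-. *Myog* rose by 5.55 ± 0.51 over GFP- Pdgfrα- and 4.41 ± 0.51 over GFP+ Pdgfrα+ cells (limma, adjusted p = 1.97e-06 and 6.70e-05).

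The determination factors *Myf5* and *Myod1* had 131 in each and 66.6 and 84.8 in GFP+ Pdgfrα-, and at most 4.17 and 3.31 in any other. Over GFP+ Pdgfrα+ cells *Myf5* rose by 4.78 ± 0.36 and *Myod1* by 4.27 ± 0.37 (limma, adjusted p = 2.95e-06 and 7.06e-06). The fusion genes myomaker (*Tmem8c*) and myomixer (*Gm7325*) had 71.3 and 64.2, and 21.2 and 18.9, in GFP+ Pdgfrα-, and at most 3.73 and 0.690 elsewhere. *Tmem8c* rose by 4.22 ± 0.45 over GFP+ Pdgfrα+ cells (limma, adjusted p = 3.47e-05), and *Gm7325* had 160 reads in GFP+ Pdgfrα- against 2 in GFP+ Pdgfrα+ cells, a ratio of 70.9 (19.3 to 591; 2.17e-05). *Pax3* and *Myf6* had 0 reads in the GFP- Pdgfrα- libraries and were at least 16.5-fold and 1.64-fold higher in GFP+ Pdgfrα- cells. The late factor *Myf6* had only 5 and 6 reads in the GFP+ Pdgfrα- libraries.

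Markers of other cells moved with the same split. Smooth muscle and pericyte genes were higher in GFP+ Pdgfrα- cells than in GFP- Pdgfrα- cells for 11 of 11 and higher than in GFP+ Pdgfrα+ cells for 8 of 11, beside 30.1% and 11.1% of all genes. Their sum was 1925 and 2584 in GFP+ Pdgfrα-, 747 and 641 in GFP+ Pdgfrα+, 601 and 636 in GFP- Pdgfrα+, and 80.3 and 135 in GFP- Pdgfrα-, with *Rgs5* the most abundant over all libraries. Smooth muscle actin, *Acta2*, had 584 and 623 in GFP+ Pdgfrα- and 11.5 to 73.3 in the other 6. Schwann cell precursor genes were higher for 5 of 5 in both comparisons, beside the same shares, with a sum of 406 and 380.1 in GFP+ Pdgfrα-, 91.6 and 56.2 in GFP+ Pdgfrα+, 12.7 and 22.4 in GFP- Pdgfrα+, and 21.7 and 38.3 in GFP- Pdgfrα-, and with *Erbb3* the most abundant over all libraries. *Foxd3* of this list had 0 reads in both GFP- Pdgfrα- libraries. The part of these cells in the results of the 10 genes was not tested.

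Of 4 cardiac genes in the table, 2 were higher in GFP+ Pdgfrα- cells than in GFP- Pdgfrα- cells, beside 30.1% of all genes, and 0 were called against GFP+ Pdgfrα+ cells by limma, with 0 at an unadjusted p of at most 0.05. Their sum was 54.6 and 9.78 in GFP+ Pdgfrα-, 17.1 and 5.75 in GFP+ Pdgfrα+, 7.56 and 5.35 in GFP- Pdgfrα+, and 6.32 and 1.65 in GFP- Pdgfrα-. The most abundant of these genes was *Myh6* in replicate 1 of each population but GFP- Pdgfrα+, and *Ryr2* in the other libraries. The cardiac heavy chain *Myh6* had 140 and 13 reads in GFP+ Pdgfrα-, 31 and 5 in GFP+ Pdgfrα+, 0 in both GFP- Pdgfrα+ libraries, and 11 and 1 in GFP- Pdgfrα-. The atrial light chain *Myl7* had 40 and 0 reads in the GFP+ Pdgfrα- libraries. Replicate 1 was thus the higher library for *Myh6* in each population that had reads of it. The part of cardiac cells in the results of the 10 genes was not tested.

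Blood and erythroid genes marked the GFP- Pdgfrα- cells. All 7 were lower in GFP+ Pdgfrα- cells than in GFP- Pdgfrα- cells and 1 was higher than in GFP+ Pdgfrα+ cells, beside 23.6% and 11.1% of all genes, and the sum was 6707 and 12082 in GFP- Pdgfrα-, 84.1 and 54.9 in GFP+ Pdgfrα-, 25.8 and 30.9 in GFP+ Pdgfrα+, and 35.9 and 33.1 in GFP- Pdgfrα+. *Hbb-b1*, the adult β-globin, was the most abundant, at 4362 and 7619 in GFP- Pdgfrα-, although Ter119+ cells were gated out. *Ptprc*, which encodes CD45, had 11.3 and 6.72 in GFP- Pdgfrα-, 1.34 and 0.900 in GFP+ Pdgfrα-, 0.690 and 1.58 in GFP+ Pdgfrα+, and 0 reads in both GFP- Pdgfrα+ libraries. Mitochondrial ribosomal RNA (*mt-Rnr2*) took 27.2% and 29.1% of the reads of the GFP- Pdgfrα- libraries, 17.6% and 15.6% in GFP+ Pdgfrα-, 9.52% and 10.3% in GFP+ Pdgfrα+, and 10.8% in each of the GFP- Pdgfrα+ libraries. The median value of all genes was 8.19 and 8.61 in GFP- Pdgfrα- and 11.7 to 12.3 in the other 6. The part of this make-up in the low values of the 10 genes in GFP- Pdgfrα- cells was not tested.

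Endothelial genes were higher for 1 of 5 against GFP- Pdgfrα-, beside 30.1% of all genes, and called for 0 of 5 against GFP+ Pdgfrα+ cells by limma, with 1 and 0 at an unadjusted p of at most 0.05. Their sum was 45.3 and 92.2 in GFP+ Pdgfrα-, 47.6 and 69.4 in GFP+ Pdgfrα+, 49.0 and 51.2 in GFP- Pdgfrα+, and 30.6 and 113 in GFP- Pdgfrα-, with *Tek* the most abundant over all libraries. *Pecam1*, which encodes CD31, had 4.25 and 18.1 in GFP+ Pdgfrα-, 4.005 and 9.06 in GFP+ Pdgfrα+, 3.91 and 4.01 in GFP- Pdgfrα+, and 12.8 and 27.9 in GFP- Pdgfrα-. Of 5 chondrocyte genes, 1 was higher and 4 lower in GFP+ Pdgfrα- cells than in GFP- Pdgfrα- cells, beside 30.1% and 23.6% of all genes, and 2 were lower than in GFP+ Pdgfrα+ cells, beside 13.1%. Their sum was 66.4 and 95.1 in GFP+ Pdgfrα-, 283 and 362 in GFP+ Pdgfrα+, 534 and 1868 in GFP- Pdgfrα+, and 481 and 891 in GFP- Pdgfrα-, with *Col2a1* the most abundant over all libraries and *Matn1* at 0 reads in both GFP+ Pdgfrα- libraries.

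Fibroblast and osteoblast genes were higher in GFP+ Pdgfrα- cells than in GFP- Pdgfrα- cells for 6 of 6 and lower than in GFP+ Pdgfrα+ cells for 6 of 6, beside 30.1% and 13.1% of all genes. Of the 6, *Pdgfra* was itself the sort marker, so the gate set its direction between Pdgfrα- and Pdgfrα+ cells. The sum was 5522 and 4567 in GFP+ Pdgfrα-, 87576 and 66808 in GFP+ Pdgfrα+, 31508 and 28885 in GFP- Pdgfrα+, and 774 and 991 in GFP- Pdgfrα-, with *Col1a1* the most abundant. Of the sort markers, *Pdgfra* had 733 to 839 in the Pdgfrα+ libraries and 3.30 to 18.1 in the others. *Nes* had 149 and 176 in GFP+ Pdgfrα-, 57.6 and 72.0 in GFP+ Pdgfrα+, 27.4 and 47.1 in GFP- Pdgfrα+, and 3.59 and 9.08 in GFP- Pdgfrα-, so the GFP+ Pdgfrα+ libraries were above the GFP- Pdgfrα+ ones and overlapped with none.

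How alike the 10 genes were among themselves varied. Pearson's r of a gene's log2(value + 1) with the mean of the other 9 over the 8 libraries was 0.986 for *Tnnt1*, 0.979 for *Atp2a1*, 0.964 for *Myh8*, 0.930 for *Myh3*, 0.921 for *Acta1*, 0.919 for *Myl1* and 0.874 for *Tnnc2*. It was lower for *Tnnt3* (0.656), *Ckm* (0.618) and *Mylpf* (0.340), whose values were spread over more than the GFP+ Pdgfrα- population. These r describe 8 libraries that fall into 4 populations.

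Of 10573 other genes with a mean of at least 10 in at least 1 population, the 10 whose pattern was most like the mean of the contractile genes had r between 0.985 and 0.995 (n = 8 libraries). They were *Drp2*, *Prkcq*, *Cobl*, *Iffo1*, *Nedd4l*, *F2r*, *Prox1*, *Dgkd*, *Ripply3* and *Pex19*, and none was in a list used here. *Drp2*, a relative of dystrophin, had 149.7 and 168 in GFP+ Pdgfrα-, 9.25 and 13.7 in GFP+ Pdgfrα+, 8.19 and 11.7 in GFP- Pdgfrα+, and 5.60 and 2.48 in GFP- Pdgfrα-. *Prox1*, a homeobox transcription factor, had 236 and 249, then 7.32 and 13.4, 3.91 and 7.28, and 2.44 and 2.00 in the same order. These genes were picked for that order, so it is no further result.

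Promoters of genes that rise together can be read for shared words. RefSeq promoters of build GRCm38.p6, 250 bases upstream of the start, were at hand for 9 of the 10 genes, all but *Tnnt3*. On both strands, the E-box CANNTG, the core of sites of myogenic basic helix–loop–helix factors, was found in 9 of the 9 promoters, beside 66.2% of all 32851 promoters, and its form CAGCTG, which is part of the former, in 5, beside 13.0%. The word TATAAA was found in 5, beside 12.4%, the CArG box of serum response factor in 1, *Acta1*, beside 1.47%, and the MEF2 motif in 0, beside 0.508%. Matches are descriptions of letters, and a window without a match says nothing of the factor. Shown are the 3 genes with the largest rises over GFP+ Pdgfrα+ cells, *Tnnt1* (chr7:4515976-4516225, minus strand), *Myh3* (chr11:67078050-67078299, plus strand) and *Atp2a1* (chr7:126463074-126463323, minus strand), the actin pair *Acta1* (chr8:123894776-123895025, minus strand) and *Actc1* (chr2:114052876-114053125, minus strand), which both hold a CArG box, and *Ckm* (chr7:19410844-19411093, plus strand), which was near the floor throughout. Each is written 5′ to 3′ on the gene's strand, with capitals for the matches.
Tnnt1: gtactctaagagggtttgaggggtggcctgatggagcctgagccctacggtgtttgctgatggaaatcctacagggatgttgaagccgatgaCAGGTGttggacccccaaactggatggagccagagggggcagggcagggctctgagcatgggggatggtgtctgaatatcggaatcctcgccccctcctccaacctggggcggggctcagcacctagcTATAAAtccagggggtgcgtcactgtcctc
Myh3: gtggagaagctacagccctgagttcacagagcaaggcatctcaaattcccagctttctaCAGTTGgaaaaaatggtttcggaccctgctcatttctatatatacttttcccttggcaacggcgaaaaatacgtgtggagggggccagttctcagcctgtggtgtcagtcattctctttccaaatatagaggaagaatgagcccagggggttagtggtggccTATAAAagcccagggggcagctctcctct
Atp2a1: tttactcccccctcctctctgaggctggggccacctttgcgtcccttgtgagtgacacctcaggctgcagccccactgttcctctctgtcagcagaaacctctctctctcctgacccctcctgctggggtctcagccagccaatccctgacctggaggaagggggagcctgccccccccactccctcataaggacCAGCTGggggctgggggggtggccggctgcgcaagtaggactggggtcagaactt
Acta1: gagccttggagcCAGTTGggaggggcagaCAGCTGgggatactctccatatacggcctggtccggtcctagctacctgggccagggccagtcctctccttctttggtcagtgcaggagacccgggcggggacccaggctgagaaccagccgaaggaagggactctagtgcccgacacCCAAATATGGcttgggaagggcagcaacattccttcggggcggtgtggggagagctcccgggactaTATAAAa
Actc1: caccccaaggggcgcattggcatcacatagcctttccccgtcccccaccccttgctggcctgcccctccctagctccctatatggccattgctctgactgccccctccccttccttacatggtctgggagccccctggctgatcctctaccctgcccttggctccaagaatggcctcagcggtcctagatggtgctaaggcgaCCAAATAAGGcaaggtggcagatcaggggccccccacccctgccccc
Ckm: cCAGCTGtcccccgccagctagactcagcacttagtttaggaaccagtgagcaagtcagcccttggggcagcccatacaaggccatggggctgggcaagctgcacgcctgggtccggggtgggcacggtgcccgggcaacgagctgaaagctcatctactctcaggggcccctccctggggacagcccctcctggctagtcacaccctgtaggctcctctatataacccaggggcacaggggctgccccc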

How the data were processed

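RNA-seq values of 8 libraries, 2 for each of 4 populations, were analysed. The authors removed adaptors with cutadapt, used Picard, quantified reads on the NCBIM37 transcriptome with RSEM 1.17 and normalised with limma (voom). A signal per gene, normalised and on a linear scale, was deposited, and 100% of the values gave whole reads (tolerance 0.01) when taken as reads plus 0.5, divided by an effective library size and multiplied by 1000000; normalization factors lay between 0.800 and 1.13. A gene with 0 reads therefore carries a small value. Gene lengths and positions came from GENCODE M1, which annotates this build, to which 15849 of 15880 identifiers matched.

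Values were fitted as log2(value + 1) with limma 3.58.1 (lmFit, eBayes with trend, 4 residual degrees of freedom) in R 4.3.3, with 1 coefficient per population and no filter on low values. With a filter (a value above 2 in at least 2 libraries) 14333 genes and all 10 contractile genes passed. P-values were adjusted over all genes by the Benjamini–Hochberg method, and a gene was called at 0.05. The fits were tested on simulated data. Tables were made with pandas 2.3.3, numpy 2.4.6 and scipy 1.17.1, and figures with matplotlib 3.10.9, in Python 3.11.15.

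The 15 lists hold the 10 contractile genes, developmental, adult fast and slow fibre genes, other sarcomere and Z-disc genes, excitation–contraction coupling genes, fibre energy genes, precursor regulators, and markers of smooth muscle and pericytes, cardiac muscle, blood, endothelium, Schwann cell precursors, chondrocytes, and fibroblasts and osteoblasts. The members and lists were chosen with earlier results of these data known. Named are the 10 genes, all developmental, adult fast and precursor genes, the 4 most abundant of each other list, the 10 genes most alike in pattern and 4 sort markers; some genes that the rule names are given only by their counts. *Tnnc2*, *Tnnt3*, *Mylpf* and *Atp2a1* also stand in the adult fast list, *Myh3* and *Myh8* in the developmental one and *Tnnt1* in the slow one.

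Alternatives were the replicate number as a block, a fit of only the compared populations, a pseudocount of 0.1, centring on library medians, the filter, voom and edgeR 4.0.16 (quasi-likelihood, TMM) on the recovered reads, and leaving out each library, where the lone library of a population is assumed to vary like the others. Values per kb of the longest coding transcript, for the myosin ratio and for pairs of genes, were added after seeing the data. Same-numbered libraries are read as sharing a pool of pups; across genes, their deviations from population means had correlations of 0.00433 to 0.0812.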

Additional observations from a re-analysis of the deposited data

Results flagged for a closer look

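For 7 of the 10 contractile genes the difference between GFP+ and GFP- cells was not the same with and without surface Pdgfrα, by the interaction term of the limma fit, where 25.2% of all genes were called in the same direction. On the log2 scale the GFP difference among Pdgfrα- cells exceeded that among Pdgfrα+ cells by 5.25 for *Tnnt1*, 3.53 for *Atp2a1*, 3.35 for *Myh8*, 2.90 for *Myh3*, 2.36 for *Tnnc2*, 1.91 for *Acta1* and 1.63 for *Myl1*. The call of *Myl1* was lost without any 1 of 7 of the 8 libraries, with centred libraries, in edgeR and with a pseudocount of 0.1. The cause was not tested.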

How the results depend on the processing

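Over 103 differences of single genes, settings that kept all libraries gave 711 values, of which 677 kept direction and call, 23 lost the call, 6 gained it and 5 changed direction. Leaving out a library gave 824 values, of which 744, 54, 8 and 18 did. No value that changed direction belonged to a called difference.

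With centred libraries, 2 rather than 6 of the 10 genes were called between GFP- Pdgfrα- and GFP- Pdgfrα+ cells, *Mylpf* became -0.0731 in GFP+ Pdgfrα- over GFP- Pdgfrα- cells, *Myl1* became 0.0326 in GFP- Pdgfrα- over GFP- Pdgfrα+ cells, and *Ckm* and *Myl1* became -0.00135 and -0.00488 in GFP+ Pdgfrα+ over GFP- Pdgfrα+ cells, where edgeR gave -0.0188 for *Ckm*. Without 1 library, the 10 genes had between 2 and 7 calls for GFP- Pdgfrα- against GFP- Pdgfrα+, and all genes had 246 to 1083 calls for GFP+ Pdgfrα+ against GFP- Pdgfrα+ and 2158 to 4056 for GFP+ Pdgfrα+ against GFP+ Pdgfrα-.

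In GFP+ Pdgfrα+ over GFP- Pdgfrα+ cells, leaving out 1 library gave -0.39 to 0.45 for *Ckm*, -0.79 to 0.33 for *Mylpf*, -0.13 to 0.32 for *Tnnt1*, -0.14 to 0.30 for *Tnnt3*, -0.11 to 0.16 for *Myl1*, -0.16 to 0.30 for *Myh3* and -0.28 to 0.27 for *Myh8*. In GFP+ Pdgfrα- over GFP+ Pdgfrα+ cells it gave -0.14 to 0.48 for *Ckm* and -0.0944 to 0.78 for *Tnnt3*, and in GFP- Pdgfrα- over GFP- Pdgfrα+ cells -0.97 to 0.13 for *Myl1* and -0.20 to 0.43 for *Myh3*. The cause was not tested.

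With the replicate number as a block, 6, 9, 0, 7 and 7 of the 10 genes were called for GFP- Pdgfrα- against GFP- Pdgfrα+, GFP+ Pdgfrα- against GFP- Pdgfrα-, GFP+ Pdgfrα+ against GFP- Pdgfrα+, GFP+ Pdgfrα- against GFP+ Pdgfrα+ and the interaction. In that order 9541, 8581, 924, 3925 and 7104 of all 15880 genes were called in either direction. *Actn3* was then not called in GFP+ Pdgfrα- over GFP+ Pdgfrα+ cells (adjusted p = 0.0507 in limma, in a range of 0.0399 to 0.173 over its alternatives). The block changed no other call among the 103 differences.

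The log2 ratio of developmental to adult fast heavy chains was 4.22 without division by length, 2.67 with 1 added to each sum and 4.22 with the longest coding transcript, which was chosen after seeing the data; without replicate 1 or 2 it lay between 2.87 and 4.70. With that transcript the log2 ratio of *Myh3* to *Myh8* in GFP+ Pdgfrα- cells went from 0.23 to -0.68, that of *Myl4* to *Myl1* from -2.36 to -0.77 and that of *Tnnt1* to *Tnnt3* from 2.04 to 2.77. Depth limits genes with few reads, among them *Ckm*, *Tnnc2* and *Myh1*, which had at most 24 in any library.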
